A study of Aspergillus niger with 4 samples.

Results

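The genes of Aspergillus niger that encode very large proteins were taken as all genes with a listed coding length of at least 6000 bases. There were 116 of them among the 10898 genes listed in at least 1 of the 4 libraries. Their coding lengths ran from 6006 to 21201 bases with a median of 7272, which corresponds to 2002 to 7067 codons. Among the listed genes length alone chose them, and a gene is listed only if at least 1 library had a read. The change between the strains did not enter the rule.

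RNA was sequenced from mycelium of 2 strains, with 2 libraries each. Both strains carry the cspA1 and pyrG- alleles and a kusA gene disrupted by amdS. The reference strain, N593 delta-kusA, has no further change, and in the delta-hapX strain hapX is also replaced by the hph marker. Mycelium grown for 16 h with 2% fructose was moved to pH 6 minimal medium, given 25 mM maltose and harvested after 2 h. Separate cultures for the replicates are not mentioned in the labels. The p-values thus reflect only how far these libraries differ, and that spread may be technical. In bulk mycelium, fewer cells with a transcript and less of it per cell cannot be told apart. Libraries held 3505555 to 4264311 expected counts, an estimate of reads per gene. The level of hapX itself was not analysed here, because 0 of the 10898 identifiers matched the table of gene names at hand. Members are therefore given by identifier and length, without a name or function.

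Very large proteins in filamentous fungi are known as multidomain machines. Polyketide synthases and nonribosomal peptide synthetases build secondary metabolites, siderophores among them, on chains of repeated catalytic domains, and their genes often lie beside others of the same pathway and are silent in many growth conditions. Other very large proteins serve every cell, such as the dynein heavy chain that moves cargo along microtubules, fatty acid synthase, acetyl-CoA carboxylase and the large kinases of growth and DNA damage signalling. HapX binds together with the CCAAT-binding complex. In Aspergillus species it is known for repressing iron-consuming pathways and supporting siderophore synthesis when iron is scarce. No source used here says which member encodes which of these proteins.

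The members fell along a continuous range of levels, from near silence to strong expression. Levels are given as FPKM, the authors' value scaled to gene length and library size. A member was called expressed when its mean FPKM reached 10 in at least 1 strain, low when it reached 1 but not 10, and near silent when it stayed under 1 in both strains. By these limits 48 members were expressed, 29 were low and 39 were near silent. The near silent class held 33.6% of the members, against 13.6% of all listed genes and 11.5% of the 131 genes of 4500 to under 6000 bases. The median of the members' mean FPKM was 5.275, against 15.67 for all listed genes and 17.43 for the next shorter class. A gene is listed only if at least 1 library had a read, and a long gene collects more reads than a short one at the same FPKM. Short silent genes can therefore be missing from these shares more readily than long ones, and the shares were not tested.

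**Figure D1:**
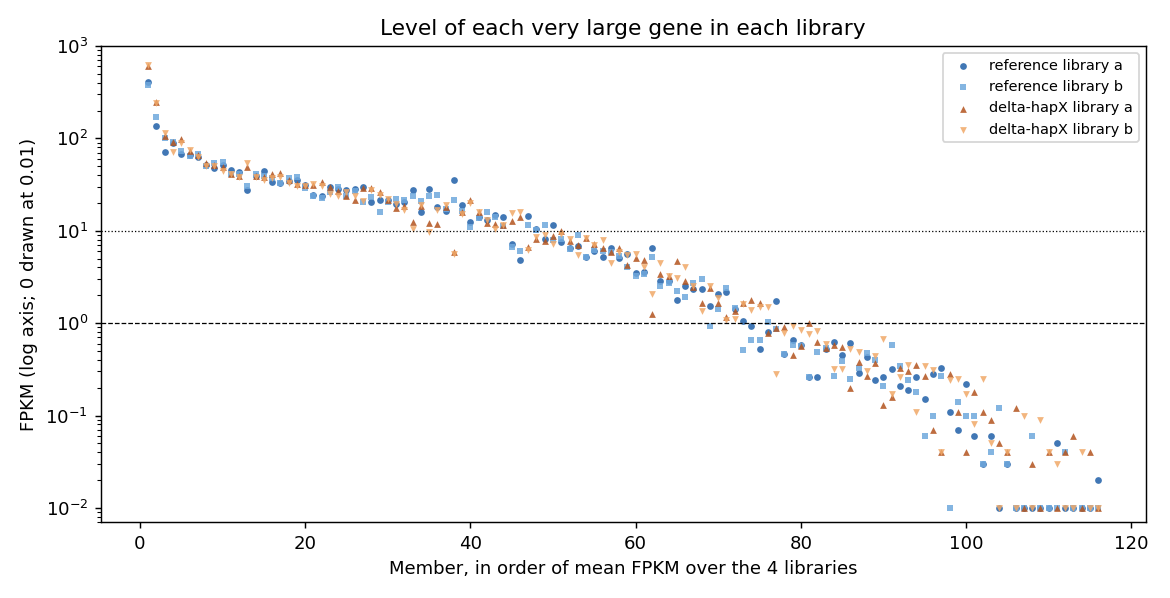
FPKM of the 116 very large genes in each of the 4 libraries (log axis, with values of 0 drawn at 0.01), ordered by their mean. The dashed line marks 1 FPKM and the dotted line 10 FPKM. The most abundant member has a mean of 503.1 FPKM, 2 members lie above 100 and 14 lie below 0.1.

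The class of a member was mostly the same in both strains. Of the members under 1 FPKM in the reference, 39 were also under 1 in delta-hapX and 4 reached 1 or more, namely NRRL3_03977, NRRL3_07884, NRRL3_09038 and NRRL3_09789. In the reverse direction only NRRL3_11767 went from above 1 to below 1 in the strain means, from 1.74 and 0.86 FPKM to 0.89 and 0.28, and its libraries overlapped. NRRL3_04180 and NRRL3_08538 crossed 10 FPKM upwards in the strain means, and NRRL3_03684, NRRL3_06801 and NRRL3_08790 crossed it downwards. The change of NRRL3_03684 did not pass the test described below. The members were detected in nearly equal numbers, with reads for 106 of 116 in each reference library and for 111 and 109 in the delta-hapX libraries.

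NRRL3_05011 (6381 bases) was the most abundant member in every library. Its values were 411.68 and 373.89 FPKM in reference libraries a and b against 605.17 and 621.53 FPKM in libraries a and b of delta-hapX, so the strains did not overlap. NRRL3_03431 (6852 bases) came next, with 137.15 and 169.90 FPKM in the reference and 247.13 and 242.79 FPKM in delta-hapX. These 2 genes stood apart from the rest, since the range of each over the 4 libraries did not overlap that of the gene below it. From the third place on the ranges overlapped, from NRRL3_01579 (97.79 ± 18.3 FPKM, SD over 4 libraries), NRRL3_08288 (85.53 ± 9.28) and NRRL3_00248 (81.43 ± 13.9) to NRRL3_03829 (69.94 ± 5.04) and NRRL3_10875 (64.67 ± 2.78). A gap then separated NRRL3_10875 from NRRL3_06934 (51.79 ± 1.58), NRRL3_06985 (50.83 ± 2.56) and NRRL3_11557 (50.13 ± 4.54), which overlapped one another. None of the 10 most abundant members was longer than NRRL3_00248 with its 7278 bases. Across the 116 members, coding length and mean FPKM had a Spearman correlation of -0.164, given as a description of genes that share the same 4 libraries.

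The most abundant members weighed heavily in the members' share of the libraries. All members together held 1.684% and 1.659% of the counts in reference libraries a and b, against 1.871% and 1.837% in the delta-hapX libraries. The means were 1.671% ± 0.0175 and 1.854% ± 0.0239 (SD, n = 2 per strain). An exact permutation test, two-sided, gave p = 0.333, and no smaller value is possible with 2 libraries against 2. The counts of NRRL3_05011 alone were 15.41% ± 0.891 of the members' total in reference libraries and 21.65% ± 0.692 in those of delta-hapX. Without it and NRRL3_03431, the other 114 members held 1.305% ± 0.0162 and 1.28% ± 0.0294 of the counts, and these libraries overlapped (exact permutation p = 0.667). No higher share in delta-hapX remained without these 2 genes. Both were higher in delta-hapX, so leaving them out had to lower its share, and no member that fell was left out likewise.

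The comparison of delta-hapX with the reference asks which transcripts depend on hapX on maltose. Of the 116 members, 91 passed edgeR's filter on low counts and were tested within a fit of all 8535 tested genes. A total of 29 members changed, 21 of them higher and 8 lower without hapX, at a Benjamini-Hochberg adjusted p under 0.05 over all tested genes by edgeR's quasi-likelihood test (n = 2 per strain). This was 31.9% of the tested members, where 26.6% of all tested genes were called. Higher members made up 23.1% against a background of 12.2%, and lower members 8.79% against 14.4%. Among the higher members 1, NRRL3_06341, passed the filter through the delta-hapX libraries alone, as did 67 of the 1044 higher genes. Such genes had to differ to be tested. Of the lower members 0 passed through the reference libraries alone, as did 30 of the 1225 lower genes. Among the 118 tested genes of 4500 to under 6000 bases, 21 were higher and 17 lower, or 17.8% and 14.4%. The 32.2% called in that class was close to the share of the members. The median log2 fold change of the tested members was 0.06, with quartiles of -0.18 and 0.41, against 0.00 for all tested genes. A smooth trend of fold change on coding length over all tested genes stood at 0.07 for the members at the median. With this trend removed, 19 members were higher and 10 lower and their median was 0.00. The trend was fitted on these same genes, so a median near 0 follows by construction. DESeq2's Wald test called 11 members higher and 7 lower, which is 22.0% of those it tested against 17.5% of all genes. With limma the order was the other way. On log2(FPKM + 1) it called 6 members higher and 5 lower, or 14.5% of 76 tested against 18.1% of all genes, and higher members made up 7.89% against 7.33%. On log2(FPKM + 0.1) the shares were 14.5% against 16.8%, and with no filter 6.9% against 11.0%. The larger share of called members than of called genes therefore held by edgeR and DESeq2 but not by limma. CPM are read counts divided by library size, on a scale common to all libraries. On the log2(CPM + 1) scale the strain means of the tested members differed by a median of 0.27, the reference replicates by 0.16 and the delta-hapX replicates by 0.13. Over all tested genes the same medians were larger, at 0.31, 0.19 and 0.18.

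Long transcripts collect many reads, which bears on how finely a change can be seen. A tested member had a median of 295 reads per library, against 137 over all tested genes, and the median standard error of its log2 fold change was 0.158 against 0.191. The libraries of the strains did not overlap in 61 of the 91 tested members, or 67.0%, where this held for 63.4% of all tested genes. All 29 called members were among them, which the selection by the test favours. By level, 12 of the 48 expressed members rose and 5 fell, or 25.0% and 10.4%, where 13.5% and 17.4% of all tested genes of that class did. Among the 86 expressed genes of 4500 to under 6000 bases, 15 rose and 11 fell, or 17.4% and 12.8%. Of the 29 low members 8 rose and 3 fell, or 27.6% and 10.3%, against 7.9% and 4.0% of all tested low genes. Low genes of all lengths are not a like comparison, since a long gene collects more reads at the same FPKM. Among the 30 low genes of 4500 to under 6000 bases, all of them tested, 6 rose and 6 fell. Larger shares than among all tested low genes were thus not particular to the members, and these differences were not tested. Of the 14 near silent members that were tested 1, NRRL3_06341, was called higher. It was also the only one called among the 32 tested near silent genes of the whole table. This gene passed the filter through the delta-hapX libraries alone, so it had to differ to be tested. Of the 62 tested members that were not called, 31 had a fold change above 0 and 31 below 0. The 31 expressed members that were not called had log2 fold changes between -0.35 and 0.35. Changes of 2-fold or more were called in 6 members that rose and 5 that fell, and the backgrounds were 4.31% and 4.69% of all tested genes.

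**Figure D2:**
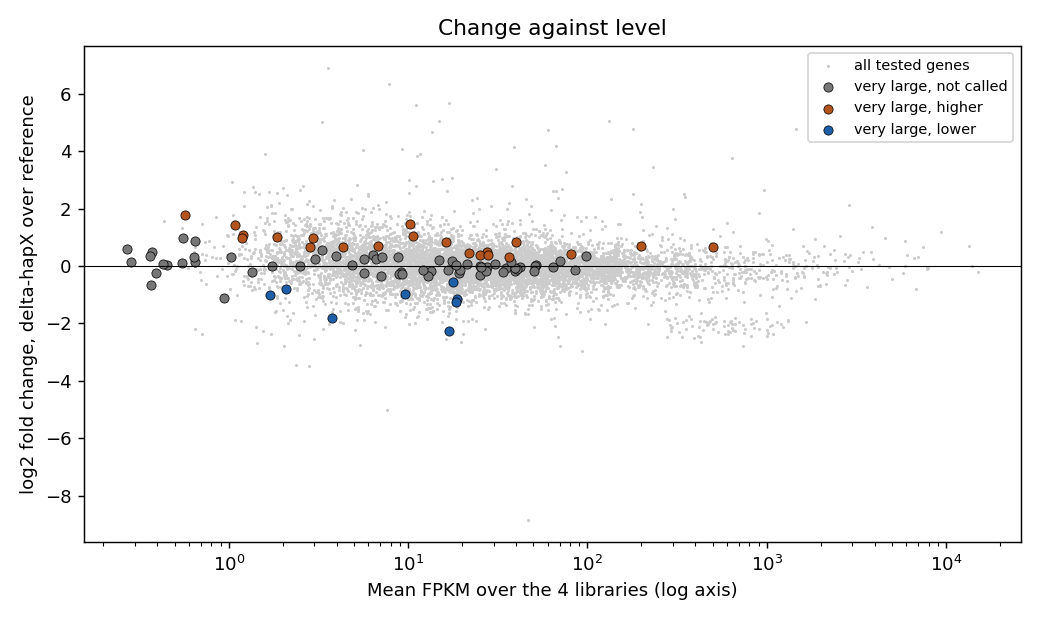
Log2 fold change of delta-hapX over reference against mean FPKM (log axis), with all tested genes in grey and the 91 tested very large genes as larger points, 21 higher in orange, 8 lower in blue and 62 not called in dark grey. The strongest fall is NRRL3_08790 at -2.27 and the strongest rise NRRL3_06341 at 1.77, a gene that was tested through its delta-hapX reads alone.

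The 8 lower members had a median coding length of 13264.5 bases, and 5 of them had 10000 bases or more. NRRL3_08790 (16923 bases) fell most. It had 2606 and 1555 reads in reference libraries a and b and 398 and 342 in those of delta-hapX, or 35.01, 21.51, 5.95 and 5.60 FPKM. The lowest reference value was well above the highest delta-hapX value, although the reference libraries differed from each other. The log2 fold change was -2.27 (SE 0.17; edgeR adjusted p = 7.68e-09), a 4.829-fold fall. NRRL3_01339 (11787 bases) had 6.49 and 5.17 FPKM in the reference and 1.25 and 2.09 FPKM in delta-hapX, so the strains were clearly apart. It fell by 1.79 on the log2 scale (SE 0.21; edgeR adjusted p = 5.19e-06).

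A group of lower members fell by between 1.743-fold and 2.368-fold. NRRL3_10912, the second longest member with 18807 bases, had 27.78 and 24.01 FPKM in the reference and 12.54 and 10.48 FPKM in delta-hapX (log2 fold change -1.15, SE 0.12, edgeR adjusted p = 1.25e-06). The longest, NRRL3_06801 with 21201 bases, went from 14.28 and 11.42 FPKM to 6.73 and 6.21 FPKM (-0.97, SE 0.13, adjusted p = 1.27e-05). In both genes each reference library exceeded each delta-hapX library by a wide margin. NRRL3_03891 (7908 bases) fell from 28.50 and 23.97 FPKM to 12.16 and 9.73 FPKM (-1.24, SE 0.13, adjusted p = 1.36e-06). NRRL3_09002 (7221 bases), a gene of low level, went from 2.15 and 2.41 FPKM to 1.16 and 1.08 FPKM (-1.01, SE 0.29, adjusted p = 0.0148). NRRL3_05914 (14742 bases) went from 2.36 and 2.97 FPKM to 1.67 and 1.35 FPKM (-0.80, SE 0.20, adjusted p = 0.00677).

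The smallest called fall was that of NRRL3_10375 (7776 bases), with 18.08 and 24.35 FPKM in the reference and 11.94 and 16.86 FPKM in delta-hapX (log2 fold change -0.55, SE 0.17, edgeR adjusted p = 0.0202). Here the replicates of each strain lay nearly as far apart as the strains. Its call was lost without delta-hapX library a (adjusted p = 0.239) or without reference library b (adjusted p = 0.194). The calls of NRRL3_09002 and NRRL3_05914 were also lost without reference library b, with adjusted p-values of 0.0925 and 0.0753.

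The 21 higher members rose by smaller factors, with a median log2 fold change of 0.69 and a range from 0.32 to 1.77. Their median coding length was 7278 bases. In the reference 11 of them had a mean under 10 FPKM, and 4 of these under 1 FPKM. NRRL3_04180 (17193 bases), the fourth longest member, was the most clearly separated. It had 362 and 446 reads in reference libraries a and b and 964 and 978 in those of delta-hapX, or 4.79, 6.07, 14.19 and 15.76 FPKM. The strains lay further apart than the replicates of either strain. The log2 fold change was 1.48 (SE 0.13; edgeR adjusted p = 1.32e-07), a 2.787-fold rise.

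Several expressed members rose by about 2-fold or less with close replicates. NRRL3_05339 (8640 bases) went from 27.50 and 30.57 FPKM in the reference to 48.66 and 53.48 FPKM in delta-hapX (log2 fold change 0.83, SE 0.12, edgeR adjusted p = 4.55e-05). NRRL3_11645 (14169 bases) went from 12.50 and 11.06 FPKM to 21.59 and 20.14 FPKM (0.84, SE 0.12, adjusted p = 2.83e-05). NRRL3_08538 (6189 bases) rose from 7.26 and 6.72 FPKM to 12.76 and 15.73 FPKM (1.04, SE 0.16, adjusted p = 7.98e-05). In these 3 genes the strains were further apart than the replicates. The most abundant pair rose by a like amount, NRRL3_05011 by 0.66 on the log2 scale (SE 0.13, adjusted p = 8.71e-04) and NRRL3_03431 by 0.69 (SE 0.13, adjusted p = 7.71e-04). Among the other 8 of the 10 most abundant members only NRRL3_00248 was called, with 67.00 and 72.95 FPKM in the reference and 97.19 and 88.59 FPKM in delta-hapX (0.42, SE 0.12, adjusted p = 0.0124). That call was lost without delta-hapX library a (adjusted p = 0.104).

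NRRL3_01579 (6267 bases), the third most abundant member, was not called by the main test, and other settings differed. It had 71.28 and 101.54 FPKM in reference libraries a and b against 105.25 and 113.09 FPKM in those of delta-hapX (log2 fold change 0.35, SE 0.15, edgeR adjusted p = 0.0853). Reference library b lay close to the delta-hapX libraries. Without it the log2 fold change was 0.64 and the adjusted p 4.66e-04, and without reference library a they were 0.10 and 0.626. With all 4 libraries the gene was called when no filter was used (adjusted p = 0.0283) and with the replicate letter as a block (0.0118), but not by DESeq2 (0.146) or by limma on log2(FPKM + 1) (0.199).

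Besides NRRL3_04180, the largest fitted rises came from genes at the edge of detection, where few reads stood behind each value. NRRL3_06341 (6258 bases) had 7 reads in each reference library against 25 and 17 in those of delta-hapX, or 0.26, 0.26, 1.01 and 0.76 FPKM. It was the only called member of the near silent class (log2 fold change 1.77, SE 0.50, edgeR adjusted p = 0.0142). It was also the only tested member that passed the filter on low counts through the delta-hapX libraries alone, so it had to differ to be tested, and its fold change is given as a description. With no filter its adjusted p was 0.0126. Its call was lost without reference library a (adjusted p = 0.0967), reference library b (0.0882) or delta-hapX library a (0.127). NRRL3_09038 (6156 bases) had 14 and 17 reads in the reference and 40 and 33 in delta-hapX, and its fold change was 1.44 on the log2 scale (SE 0.39, adjusted p = 0.0103). The libraries did not overlap, and the call was lost without reference library a (adjusted p = 0.0745).

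A further 4 low members rose about 2-fold by the fit. NRRL3_07884 (7392 bases) had 1.05 and 0.51 FPKM in the reference and 1.65 and 1.62 FPKM in delta-hapX (log2 fold change 1.08, SE 0.36, edgeR adjusted p = 0.0338). Its call was lost without delta-hapX library b (adjusted p = 0.0532) or reference library b (0.286), and without reference library a the log2 fold change was 1.67. NRRL3_08318 (7452 bases) had 1.53 and 0.94 FPKM against 2.42 and 2.54 FPKM (1.01, SE 0.29, adjusted p = 0.0143, and 0.135 without reference library b). NRRL3_09789 (7068 bases) had 0.94 and 0.66 FPKM against 1.76 and 1.38 FPKM (0.98, SE 0.35, adjusted p = 0.0435), and the call was lost without reference library a (0.0612), reference library b (0.242) or delta-hapX library a (0.196). NRRL3_00135 (8391 bases) had 1.76 and 2.21 FPKM against 4.72 and 3.05 FPKM (0.98, SE 0.24, adjusted p = 0.00496, and 0.0737 without delta-hapX library a). In all 4 genes the strains did not overlap, as the rule for named genes required. The distance between replicates was a sizeable part of the distance between strains.

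The other 8 higher members lay outside the rule for named genes and are given to complete the account. Those with the closest replicates were NRRL3_03366 (6426 bases), with 5.25 and 5.26 FPKM in the reference against 8.42 and 8.40 FPKM in delta-hapX (log2 fold change 0.69, SE 0.16, edgeR adjusted p = 0.0045), and NRRL3_04124 (8688 bases), with 23.54 and 22.65 FPKM against 33.36 and 30.53 FPKM (0.48, SE 0.11, adjusted p = 0.00389). These 2 calls remained when any one library was left out, but limma called neither gene. Its highest adjusted p was 0.175 for NRRL3_03366 and 0.101 for NRRL3_04124. NRRL3_01130 (8709 bases) went from 3.53 and 3.26 FPKM to 5.07 and 5.58 FPKM, and NRRL3_11031 (11826 bases) from 2.52 and 1.90 FPKM to 2.89 and 4.08 FPKM. The remaining 4, NRRL3_11314, NRRL3_11349, NRRL3_00577 and NRRL3_10015, were expressed at 15.79 FPKM or more in every library and rose by 0.45, 0.40, 0.40 and 0.32 on the log2 scale. The calls of these 6 genes were each lost without at least 1 library, with the highest adjusted p-values 0.0569 for NRRL3_01130, 0.275 for NRRL3_11031, 0.204 for NRRL3_11314, 0.116 for NRRL3_11349 and for NRRL3_00577, and 0.267 for NRRL3_10015.

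**Figure D3:**
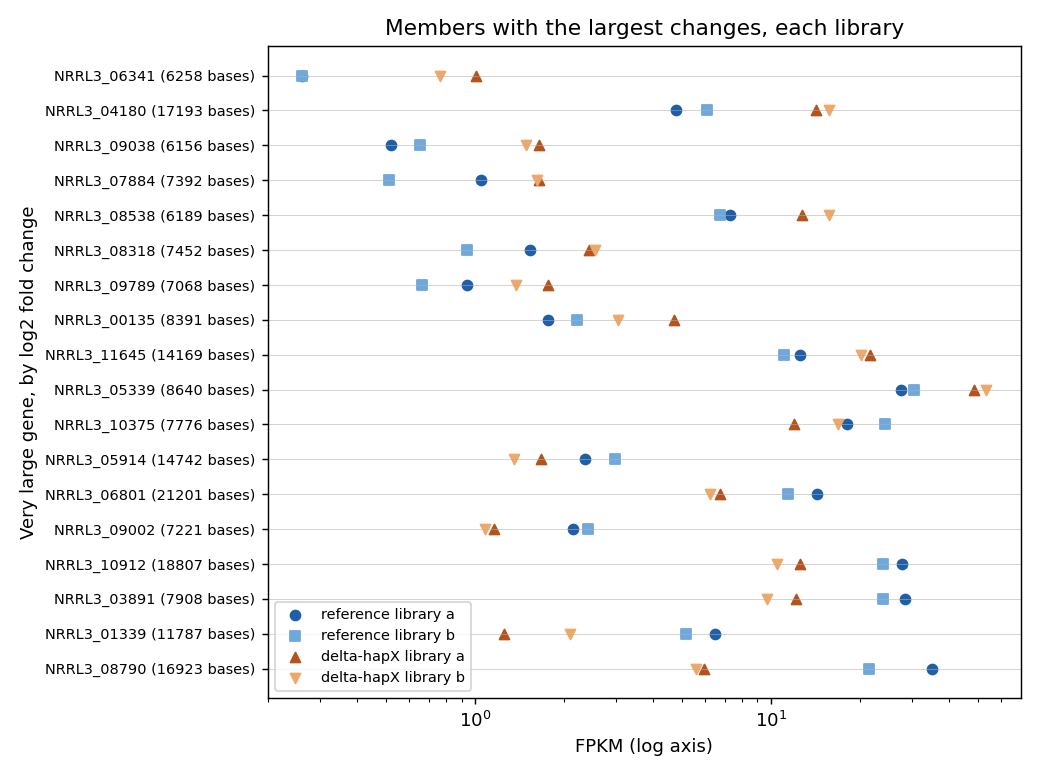
FPKM in each library (log axis) for the 8 lower members and the 10 higher members with the largest log2 fold changes among those with at least 5 CPM in the higher strain. Circles and squares are reference libraries a and b, and triangles pointing up and down are delta-hapX libraries a and b. In all 18 genes the libraries of the strains do not overlap, which was a condition for naming them. This also held for 63.4% of all tested genes.

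Shares of called members by length are set beside the 26.6% of all tested genes that were called, 12.2% higher and 14.4% lower. Of the 22 members of 10000 bases or more, 18 were tested, and 3 rose and 5 fell, which is 44.4% called, with 16.7% higher and 27.8% lower. In the class of 7500 to under 10000 bases 4 rose and 2 fell among 17 tested, or 35.3% called. In that of 6000 to under 7500 bases 14 rose and 1 fell among 56 tested. The 26.8% called there was close to the share of all tested genes, with 25.0% higher and 1.79% lower. The differences between these classes were not tested. The median size of the log2 fold change was 0.73, 0.35 and 0.23 from the longest to the shortest class. For comparison, the median size was 0.326 over all tested genes and 0.227 for those of 4500 to under 6000 bases. From the longest to the shortest class of members, the median reads per library were 428, 259 and 408. The median standard errors were 0.187, 0.168 and 0.146 in the same order, so the classes with larger changes also had larger errors. Over the 91 tested members, coding length and the size of the change had a Spearman correlation of 0.353, while length and the signed change had one of -0.0692. Genes are not independent replicates, and these values describe the 4 shared libraries.

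**Figure D4:**
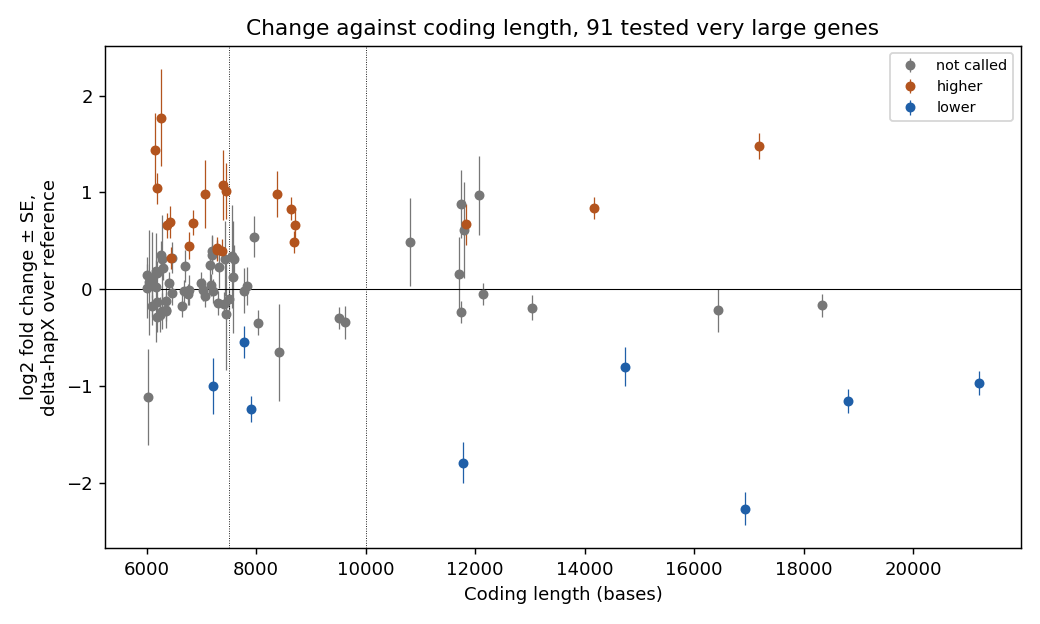
Log2 fold change ± SE of the 91 tested very large genes against coding length, with dotted lines at 7500 and 10000 bases. Points above 0 are higher in delta-hapX. Of the 5 longest genes 3 are lower, 1 is higher and NRRL3_03494 at 18330 bases is not called.

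Not every giant gene moved. NRRL3_03494 (18330 bases), the third longest, had 3563 and 3084 reads in the reference and 2755 and 2348 in delta-hapX, or 44.18, 39.37, 38.03 and 35.49 FPKM. Both delta-hapX libraries were slightly lower, and the difference did not pass the test (log2 fold change -0.17, SE 0.12, edgeR adjusted p = 0.318). NRRL3_07773 (12150 bases) had 44.89 and 40.80 FPKM in the reference and 41.19 and 40.64 FPKM in delta-hapX, and these values overlapped (-0.05, SE 0.11, adjusted p = 0.786). Of the 22 longest members 9 were near silent, among them NRRL3_08969 (15300 bases) with 0 reads in both reference libraries and in delta-hapX library b and 7 reads in delta-hapX library a. NRRL3_07773 and NRRL3_08969 were picked after their values had been seen.

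The 25 members that did not pass the filter on low counts had between 1 and 39 reads in all 4 libraries together. Their highest value in any library was 0.67 FPKM, and 10 of them had 3 reads or fewer in total. In 7 of them both reference libraries were at 0, and in 1 both delta-hapX libraries were. A count of 0 allows up to 3 reads, or 0.704, 0.724, 0.781 and 0.856 CPM in the libraries in the order reference a, reference b, delta-hapX a, delta-hapX b. It covers counting error only. When edgeR was run with no filter, 0 of these 25 were called. In 6 of the 25 the exact (Clopper-Pearson) 95% counting interval of the ratio of summed counts, per library size, did not include 1. These genes were chosen after their values had been seen, and the intervals cover counting error only, not the spread between replicates. The same count was not made over all untested genes, so no background share stands beside it. In 4 of the 6 delta-hapX had more reads. NRRL3_09827 (8235 bases) had 4 and 0 reads in the reference and 9 and 7 in delta-hapX, a ratio of delta-hapX over reference of 4.636 (1.496 to 19.06). NRRL3_08729 (6807 bases) had 1 read in each reference library and 3 and 6 in delta-hapX (5.216, 1.08 to 49.6), and NRRL3_05484 (7389 bases) had 5 and 2 against 8 and 9 (2.815, 1.109 to 8.03). The fourth was NRRL3_08969, whose 7 reads all lay in 1 delta-hapX library. The reference had more reads of NRRL3_02191 (6861 bases), with 10 and 8 against 1 in each delta-hapX library, a ratio of reference over delta-hapX of 7.765 (1.859 to 69.0). It also had more of NRRL3_08647 (6465 bases), with 9 and 16 against 4 in each delta-hapX library (2.696, 1.179 to 6.915). In the fit with no filter the adjusted p-values of these 6 genes were 0.0744 or higher.

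Just inside the length limit lay NRRL3_04162 (6006 bases), with a mean of 1.75 FPKM in both strains, and NRRL3_04399 (6009 bases), with 35.73 FPKM in the reference and 39.05 FPKM in delta-hapX. Just outside lay NRRL3_00870 and NRRL3_07794, both of 5976 bases, with 18.09 and 31.0 FPKM in the reference and 15.31 and 27.9 FPKM in delta-hapX.

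Genes with identifier numbers close to a changed member were examined, since genes of one fungal pathway often lie side by side. No source used here says whether the numbers follow the order of genes along the chromosomes, and without strand information reads of overlapping neighbours cannot be told apart. Within 2 numbers of the 8 lower members, 9 of 23 tested genes were also lower, or 39.1%, where 14.4% of all tested genes were. Within 2 numbers of the 21 higher members, 13 of 61 tested genes were also higher, or 21.3%, where the background was 12.2%. Within 5 numbers the shares were 33.3% and 18.2%. These shares were not tested. Only 4 pairs of members lay within 5 numbers of each other, and in none of these pairs did both pass the test.

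In 7 changed members at least 2 genes within 2 numbers were called in the same direction. These 7 were picked by the changes of their neighbours. The same count was not made over all called genes, so no background share stands beside it. NRRL3_08790, the member with the strongest fall, followed NRRL3_08789, which went from 125.03 and 72.49 FPKM to 30.16 and 24.13 FPKM (log2 fold change -1.84, edgeR adjusted p = 1.43e-06). NRRL3_08788 fell by 1.42 on the log2 scale (adjusted p = 0.00135). In all 3 of these genes reference library a was higher than reference library b. Further on, NRRL3_08794 and NRRL3_08795 were higher, by 4.07 and 2.18. In the reference they lay near the floor, at 0.49 and 1.52 FPKM and at 0.57 and 0.82 FPKM. They were thus tested through their delta-hapX reads, and their fold changes are given as a description. The next numbers below NRRL3_01339 fell as well, NRRL3_01337 by 2.09 (adjusted p = 1.90e-09) and NRRL3_01338 by 0.68 (adjusted p = 9.11e-04). Above it NRRL3_01341 and NRRL3_01342 rose, by 1.42 and 0.36 (edgeR adjusted p = 0.0375 and 0.0412).

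On the side of higher genes, NRRL3_05339 opened a run of 5 consecutive numbers that all rose. The 4 that follow it rose by 0.71, 1.41, 1.17 and 1.47 on the log2 scale, with edgeR adjusted p-values of 3.74e-04, 3.02e-08, 0.00492 and 1.17e-05. The gene after them, NRRL3_05344, was lower, at -0.74. NRRL3_04180 was followed by NRRL3_04181 (264.73 and 184.24 FPKM in the reference, 444.68 and 426.33 FPKM in delta-hapX, log2 fold change 0.97, adjusted p = 4.68e-05) and NRRL3_04182 (0.96, adjusted p = 0.041). The genes 4 and 5 numbers on, NRRL3_04184 and NRRL3_04185, rose by 1.44 and 1.56, whereas NRRL3_04179 just before NRRL3_04180 fell by 0.89 (adjusted p = 0.0136). NRRL3_04185 had only 1.53 and 0.63 FPKM in the reference, so its fold change is given as a description. NRRL3_03431 was followed by 2 other long genes that rose, NRRL3_03432 (3822 bases, 0.62, adjusted p = 5.79e-04) and NRRL3_03433 (4839 bases, 0.37, adjusted p = 0.039). For NRRL3_08318 the 2 preceding numbers rose by 0.69 and 0.64, and for NRRL3_03891 the next number, NRRL3_03892, fell by 1.65 (adjusted p = 1.04e-05).

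**Figure D5:**
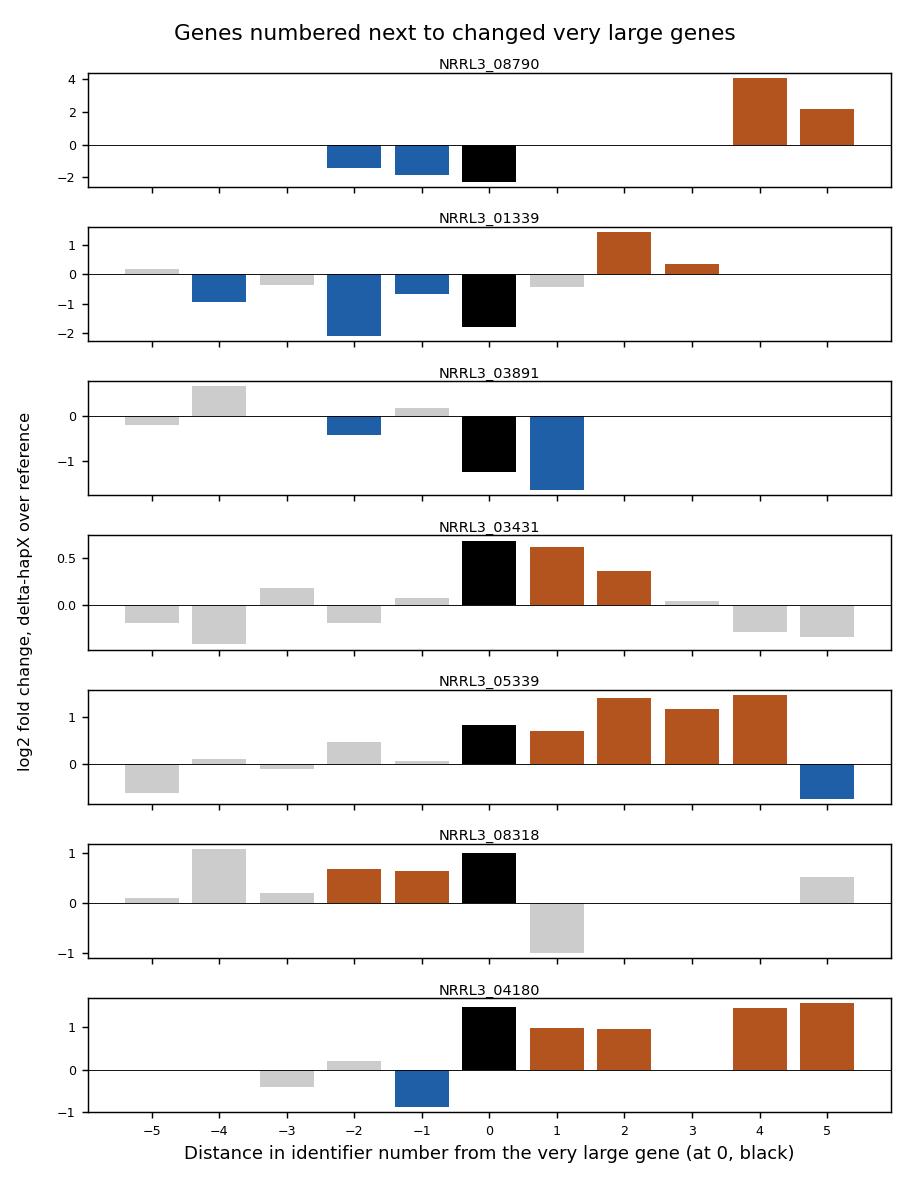
Log2 fold change of genes by their distance in identifier number from the 7 changed very large genes (black bar at 0) that have at least 2 genes called in the same direction within 2 numbers. Orange and blue bars passed the test as higher and lower, grey bars did not, and gaps are genes that are absent or not tested. Each panel has its own vertical scale, and the run of 4 higher genes after NRRL3_05339 stands beside a lower one at a distance of 5.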

How the data were processed

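RNA of 4 libraries was sequenced as single-end reads, per the labels' protocols, and mapped to the A. niger NRRL3 genome, per the series' design text. Bowtie2 and HISAT are named in the submitters' processing notes. How genes were quantified, the annotation release, strandedness and any filter were not given in the sources used here. Per the file headers, each deposited table holds the length of a gene, its expected count (not normalized) and an FPKM value computed by the authors. Every listed length is a multiple of 3 and was read as a coding length. Genes absent from a table were set to 0, expected counts were rounded to whole numbers, and at most 1 member per library had a count that was not whole.

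All genes were fitted together with edgeR 4.0.16 (R 4.3.3) with group as the only term, TMM, filterByExpr and Benjamini-Hochberg adjustment at 0.05. CPM are counts scaled to a common library size after TMM, except the floors for a count of 0, which use plain totals. Fold changes are delta-hapX over reference. Each standard error is the size of the log2 fold change over the root of its F statistic. DESeq2 1.42.0 and limma 3.58.1, on log2(FPKM + 1) or log2(FPKM + 0.1), were alternatives, with the others named in the closing section. The length trend was a loess curve (span 0.5). The fits were tested on simulated data. The labels give no batch.

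The members, lists and tests were chosen with earlier results of these data known. Named members were the 10 most abundant, the 10 largest called changes in each direction with no overlap and at least 5 CPM in the higher strain, the 5 longest, called near silent members and those next to the length limit. The letters a and b are not said to pair libraries; deviations of same-lettered libraries correlated at 0.0245 across 8535 genes.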

Additional observations from a re-analysis of the deposited data

How the results depend on the processing

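The direction of every called member was the same in each of the 14 alternative fits that included it, but the number of calls depended on the tool. Against 29 members called (21 higher, 8 lower), DESeq2's Wald test called 18 (11 higher), limma on log2(FPKM + 1) called 11 (6 higher, 5 lower), limma on log2(FPKM + 0.1) also 11 (6 and 5), and limma on log2(FPKM + 1) with no filter 8 (4 and 4). By limma the members' share of calls was below that of all genes (14.5% against 18.1%, 14.5% against 16.8% and 6.9% against 11.0%). Over all genes the count of 2269 became 1386 with DESeq2 and 1201 with limma and no filter. The cause was not tested. With the replicate letter as a replicate block, 34 members and 2628 genes were called, NRRL3_01579 among them (adjusted p = 0.0118). The 8 members called in every alternative that tested them were NRRL3_08790, NRRL3_01339, NRRL3_03891 and NRRL3_10912, all lower, and NRRL3_04180, NRRL3_05339, NRRL3_03431 and NRRL3_05011, all higher. Leaving out 1 library gave 22 to 25 called members (14 to 16 higher, 7 to 9 lower), where the spread of the remaining library of a strain is taken from the other strain, and a median log2 fold change from 0.04 to 0.11. That median, 0.06, was 0.13 with no filter, which adds 25 members, and -0.0024 with the length trend removed, which sets it near 0 by construction. A length limit of 7000 bases left 13 higher members among 54 tested. All 8 lower members had 7221 bases or more and so lay above this limit as well. Over all tested genes 12.2% were higher and 14.4% lower. The difference in the members' share was 0.183 percentage points of counts and 0.0572 of summed FPKM, and 0.166 to 0.1996 of counts without 1 library. Members with few reads limit what can be called at these depths.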
